A study of Mus musculus with 45 samples.

Results

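Genes that were low on days 1.5 and 2 of differentiation, and higher both before and after, were selected in mouse embryonic stem cells (ESCs) that left the 2iL state. A gene was a member if its mean CPM (its counts scaled to a library total of 1000000) over the 6 libraries of days 1.5 and 2 was at most 1/3 of its mean at day 0 and at most 1/3 of its mean at days 5 and 7, with at least 3 CPM at both ends. T, Nes and genes with symbols starting mt-, Hist or Col were left out. The rule found 191 members among 35372 genes in the count files, of which 10168 met the 3 CPM limits at both ends and the name exclusions. All cells were male E14tg2a ESCs (XY1, a wild type 129/Ola line). They were kept in 2iL (N2B27 medium with LIF and the inhibitors CHIR99021 of Gsk3 and PD0325901 of Mek) or in SL (serum with LIF), and then differentiated without LIF in 3 courses. EB was suspension culture in serum, EpiSC was adherent culture in N2B27 with Fgf2 and ActivinA, and Neural was adherent culture in N2B27 alone. Ribosome-depleted total RNA was sequenced at days 0, 1, 1.5, 2, 2.5, 3, 5 and 7, with 23 libraries from 2iL and 22 from SL. Each medium, course and day had 1 library, the single day 0 library of SL served all 3 courses, and the EpiSC library of day 5 from 2iL was not analysed here. The courses of a day were therefore the only replicates where days or media were compared. Those p-values measure how far a change varied between culture conditions, and not between repeats of one condition. Days of a course entered a fit as separate libraries, and a term for the course removes only what all its days share. The p-values may therefore be too small. Where courses were compared late in SL, days 5 and 7 of a course took the place of replicates.

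In 2iL, inhibition of Gsk3 keeps beta-catenin stable and the Wnt pathway on, inhibition of Mek keeps Fgf signalling off, and LIF activates Stat3. When these are withdrawn, ESCs leave naive pluripotency, go through a formative state that resembles the early post-implantation epiblast, and then enter lineages. Axin2 and Sp5 are well known targets of Wnt signalling, and Socs3 of Stat3. Laminins and nidogen build the basement membrane on which epithelia such as the epiblast rest, and lysosomes degrade material that the cell takes up or recycles.

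Between 13093226 and 39804240 counts per library were assigned to genes (median 18222700). The 8 EB libraries from 2iL were the deepest, with a median of 34490700 against 17297400 in the other 37. The summed level of 5 naive markers (Esrrb, Klf2, Nanog, Tfcp2l1 and Zfp42) was 3884 to 4139 CPM at day 0 in 2iL and 2236 CPM in SL, and it was at most 438 CPM in every library of days 1.5, 2, 5 and 7. The 4 formative markers (Dnmt3b, Fgf5, Otx2 and Pou3f1) summed to 592 to 2952 CPM at days 1.5 and 2 in 2iL and to 799 to 2871 CPM in SL, against 94.9 to 125 and 225 CPM at day 0. Of the late libraries, those labelled Neural held the most of the 6 extraembryonic endoderm markers (Cubn, Dab2, Gata4, Gata6, Sox7 and Sox17), with 1154 to 2214 CPM from 2iL and 2370 to 2641 CPM from SL, beside 47.6 to 107 CPM and 25.7 to 51.6 CPM of the neural marker Pax6, which was at most 22.9 CPM in every late EB and EpiSC library. The neural marker Sox1 did not separate the courses, with 39.8 to 103 CPM in Neural and 71.6 CPM in EpiSC late from 2iL, and 26.5 to 67.7 CPM and 17.8 to 50.3 CPM from SL. In SL, the endoderm markers were already at 428 CPM at day 0 and at 794 to 1905 CPM on days 1.5 and 2, whereas 2iL day 0 had 3.26 to 5.44 CPM. In these bulk samples, fewer cells of a type and less RNA per cell cannot be told apart.

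The values that chose the members are given here as a description. Over the 191 members, the median CPM was 16.4 at day 0, 2.40 at days 1.5 and 2, and 16.4 at days 5 and 7. The median distance of the middle days from the nearer end was 4.28-fold, and the greatest was 55.5-fold, for the transcription factor Sp5. Just inside the limit of 3 lay Pbxip1 (3.0005-fold), S100a11 (3.003-fold) and Cyp4f17 (3.007-fold), and just outside it Tmem144 (2.997-fold), Ppp1r26 (2.997-fold) and Cercam (2.996-fold). Together the members took 0.809% to 0.869% of the counts at day 0, 0.141% to 0.169% on days 1.5 and 2, and 0.542% to 1.47% on days 5 and 7. Apart from Gpr137b-ps, a transcribed pseudogene whose reads may be shared with its parent Gpr137b, also a member, the members are protein coding (190 of 191). Chromosome X holds 6 of them (3.14%), against 3.41% of the 10168 genes at the same levels.

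Sequence before an annotated start is shown for 3 members: Sp5, a direct target of Wnt signalling, Socs3, the feedback inhibitor that Stat3 induces, and Ctsa, the lysosomal protective protein cathepsin A, as an example of the lysosome group. Each run is the 250 bases before a transcription start in RefSeq (GRCm38.p6), 5′ to 3′ on the strand of the gene. Capitals mark CTTTGA, the core bound by TCF/LEF factors, in Sp5, the palindrome TTCNNNGAA that STAT factors bind in Socs3, and the E-box CACGTG in Ctsa.
Sp5, chr2:70474673-70474922, plus strand: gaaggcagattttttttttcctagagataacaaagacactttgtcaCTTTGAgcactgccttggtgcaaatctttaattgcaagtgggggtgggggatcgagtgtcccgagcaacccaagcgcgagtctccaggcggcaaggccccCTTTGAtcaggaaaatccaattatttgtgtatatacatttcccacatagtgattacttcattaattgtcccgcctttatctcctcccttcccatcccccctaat
Socs3, chr11:117969367-117969616, minus strand: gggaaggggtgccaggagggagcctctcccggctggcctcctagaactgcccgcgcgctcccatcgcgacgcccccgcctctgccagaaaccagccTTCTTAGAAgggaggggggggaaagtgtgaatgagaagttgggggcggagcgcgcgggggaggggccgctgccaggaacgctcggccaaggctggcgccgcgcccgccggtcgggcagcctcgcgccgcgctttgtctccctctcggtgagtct
Ctsa, chr2:164833523-164833772, plus strand: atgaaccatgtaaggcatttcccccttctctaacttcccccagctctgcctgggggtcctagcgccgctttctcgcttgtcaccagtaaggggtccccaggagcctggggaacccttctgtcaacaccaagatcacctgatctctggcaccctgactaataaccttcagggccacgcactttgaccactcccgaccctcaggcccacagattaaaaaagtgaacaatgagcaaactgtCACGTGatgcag

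The RefSeq start used lies at the 5′ end of the GENCODE gene for Sp5, but 681 bases downstream of it for Socs3 and 900 bases for Ctsa, so that the runs of Socs3 and Ctsa lie inside the GENCODE gene spans. The cores in Sp5 begin 204 and 104 bases before the start, the STAT motif in Socs3 154 bases and the E-box in Ctsa 12 bases before it. Over all members, 178 windows of 133 genes were found in RefSeq, each from 250 bases before to 50 after a start, and both strands were read. The TCF/LEF core stood in 16.9% of these windows, in 11.2% of the 9829 windows of genes at the same levels and in 16.0% of all 32851 windows. For the STAT motif the shares were 7.87%, 6.56% and 8.30%, and for the E-box 8.43%, 10.6% and 7.15%. The GC box GGGCGG was in 66.3% of the members' windows and in 65.9% of those of genes at the same levels. None of these shares was tested, and a match in a window is a description of letters and not of binding.

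Within 2iL, most members had reached their lowest mean over the courses on day 1.5 (71 members) or day 2 (82), and 29 were lowest on day 1, 7 on day 2.5 and 2 on day 3. Low values on days 1.5 and 2 were part of the rule, so this timing is largely set by the choice of members. Day 1 took no part in the rule, and on that day all 191 members were below their day 0 mean, 168 of them by more than 2-fold, against 50.7% and 6.21% of the 10168 genes. The high day 0 level in this comparison was part of the rule. The median member stood at 25.8% of day 0 on day 1, 17.8% on day 1.5, 18.4% on day 2, 29.7% on day 2.5, 48.4% on day 3, 84.7% on day 5 and 116.2% on day 7, while the median of the 10168 genes stayed between 94.5% and 99.9%. The 3 courses ran close to each other up to day 2, with 14.95% in EB, 17.9% in EpiSC and 16.6% in Neural on day 1.5. They spread afterwards, to 32.6%, 40.2% and 49.3% on day 3 and to 95.8%, 85.0% and 129.9% on day 7.

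**Figure D1:**
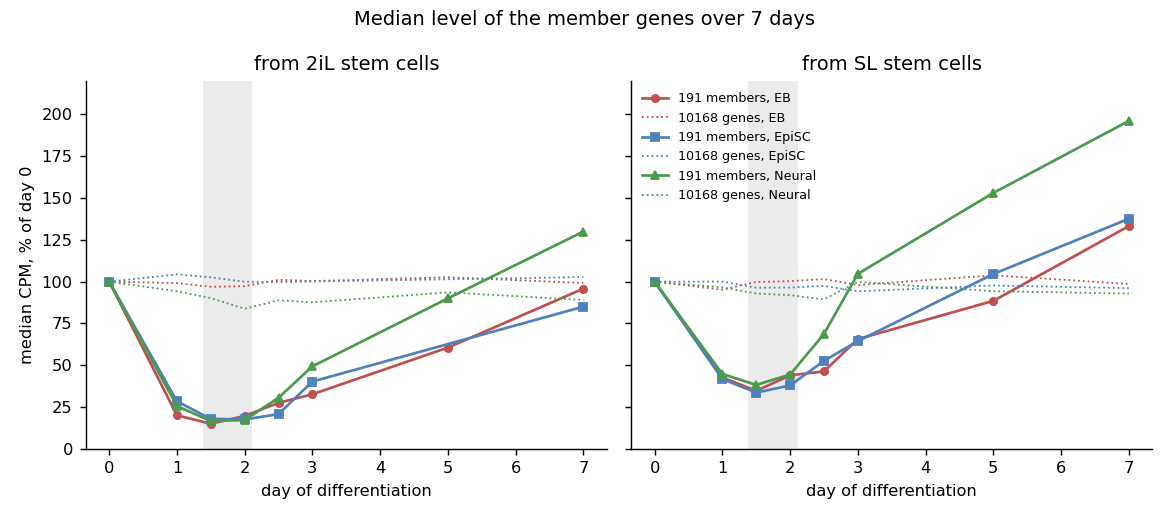
Median CPM of the 191 members (solid lines) and of the 10168 genes at the same levels (dotted lines) as a percentage of day 0, by day of differentiation, for the EB, EpiSC and Neural courses from 2iL (left) and SL (right). Shading marks days 1.5 and 2, where the members' medians were 14.95% to 19.7% in 2iL, which the rule fixed, and 33.6% to 44.4% in SL, which it did not use.

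The SL libraries took no part in the choice of members, and so ask whether the same genes dip when the cells start from serum. In SL the members fell to a median of 43.9% of day 0 on day 1, 35.8% on day 1.5 and 42.8% on day 2, and stood at 82.3% on day 3 and 167.7% on day 7. Their share of all counts was 0.777% at day 0, 0.219% to 0.300% on days 1.5 and 2, and 0.571% to 1.60% on days 5 and 7. The folds that the rule asks for in 2iL were met on both sides by 51 of the 191 members in SL (26.7%), against 0.797% of the 10168 genes. Most members, 129, were 3-fold below the late days (67.5%, against 3.64% of the 10168 genes), and 73 were 3-fold below day 0 (38.2%, against 2.94%). For 110 members (57.6%), all 6 libraries of days 1.5 and 2 lay below all 6 of days 5 and 7, against 15.8% of the genes at the same levels.

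In the edgeR quasi-likelihood fit of day and course over all 22 SL libraries (Benjamini-Hochberg, adjusted p under 0.05), 180 of the 191 members (94.2%) were lower on days 1.5 and 2 than on days 5 and 7 and 0 were higher. Of all 16481 genes tested, 35.4% were lower and 30.7% higher in this comparison. The median log2 fold change was -1.68 over the members and -0.06 over all genes. At an unadjusted p under 0.05, and with DESeq2, 182 members were lower and 0 higher, where 37.2% and 34.6% of all genes were lower. Against day 0, 110 members were lower (57.6%) and 2 higher, Tes and Ctnnd2, where 17.5% of all genes were lower and 15.3% higher, and the median log2 fold change was -1.28 over the members and 0.00 over all genes. SL had 1 library at day 0, so the error of that comparison is taken from libraries of other days. Both tests were passed downwards by 105 members (55.0%), against 8.65% of all genes, 75 members passed against the late days alone, 5 against day 0 alone and 6 neither.

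**Figure D2:**
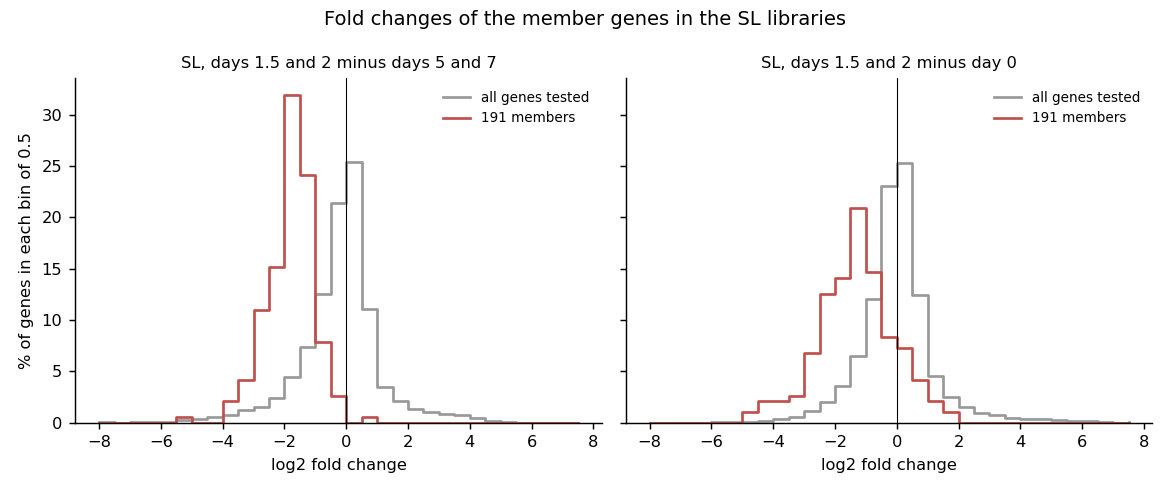
Share of genes (%) in bins of 0.5 log2 fold change in SL, for days 1.5 and 2 against days 5 and 7 (left) and against day 0 (right), with the 191 members in red and all 16481 tested genes in grey. The members' medians are -1.68 and -1.28, and those of all genes -0.06 and 0.00.

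At day 0, the single SL library was below the 2iL mean for 124 members, and 3-fold or more below it for 39 (20.4%), against 2.13% of the 10168 genes, and 3-fold or more above it for 9 (4.71%), against 2.49%. The median ratio of SL to 2iL at day 0 was 0.720 over the members and 0.982 over the genes at the same levels. Since a high day 0 level in 2iL was part of the rule, these shares lean towards 2iL by construction and carry no test.

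Grouped by what their products do, 65 members fell into 10 groups, which were made after the values were seen and are given as a description. The SL counts of each group below stand beside 94.2% of all members lower than late and 57.6% lower than day 0. For all genes tested, the shares were 35.4% and 17.5%. In 2iL, the basement membrane group had the lowest median at day 2 (5.62% of day 0), and also the lowest on days 2.5 and 3, with 10.2% at day 2.5 and 15.1% at day 3. The lysosome group was at 57.3% and the Hippo group at 81.5% by day 3. In SL, the TGF-beta, BMP and Nodal group stood at 73.4% of day 0 on day 2 and reached 656% on day 7, and the metabolism group, at 28.0% on day 2, stood at 71.5% on day 7.

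**Figure D3:**
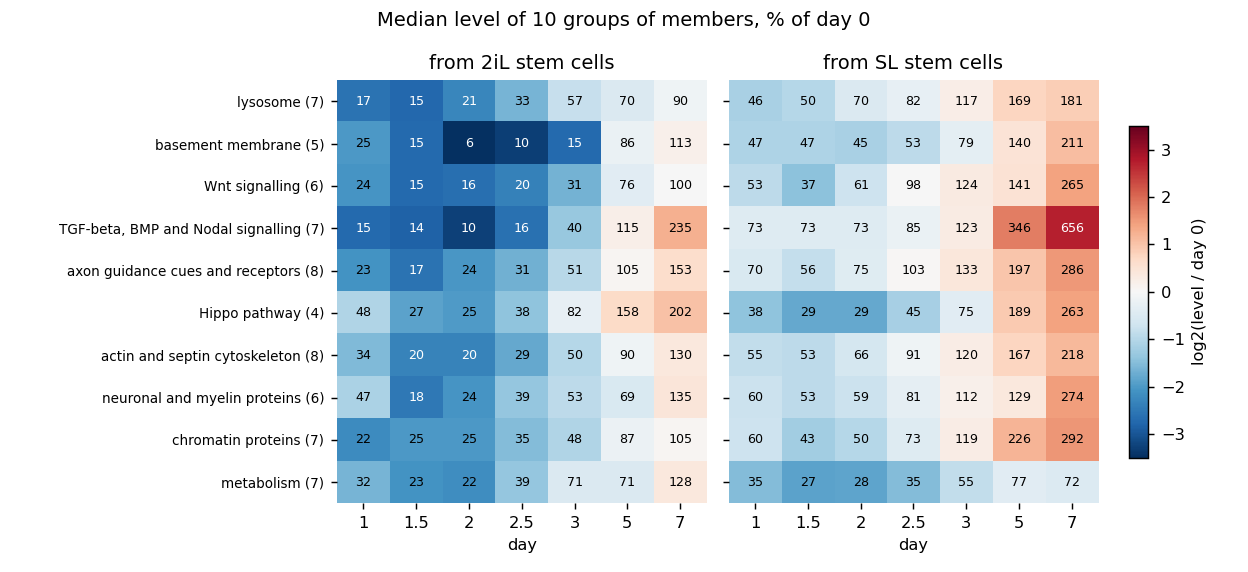
Median level of 10 groups of members (number of genes in parentheses) as a percentage of day 0 from 2iL (left) and SL (right), printed in each cell and coloured on a log2 scale. On days 1.5 and 2 the medians ran from 5.62% to 27.3% in 2iL, which the rule used, and from 27.3% to 75.02% in SL.

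Lysosomal genes formed the first group, with 7 members, among them the hydrolases Hexa, Ctsa, Ctsc, Hyal1 and Plbd1 and the membrane glycoprotein Lamp2. Lamp2 (chromosome X, 38401357 to 38456454, minus strand, GRCm38) had 111, 113 and 100 CPM at day 0 in the EB, EpiSC and Neural libraries of 2iL. On days 1.5 and 2 it ran from 14.3 to 30.3 CPM (median 18.9), and the late libraries had 95.4 and 143 CPM in EB, 135 in EpiSC and 154 and 160 in Neural. All 6 libraries of days 1.5 and 2 lay below every library of day 0 and of days 5 and 7, a separation that the rule asks of the means. In SL, Lamp2 was at 57.5 CPM at day 0, at 19.6 to 60.8 CPM on days 1.5 and 2 (median 29.9) and at 88.6 to 161 CPM late (median 124). All low SL libraries lay below all late ones, with a log2 difference of -1.87 ± 0.21 (SE, edgeR adjusted p = 1.2e-06). The difference from day 0 (log2 -0.74 ± 0.35, adjusted p = 0.12) did not pass, and the EB library of day 2 was above day 0.

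Hexa, a subunit of beta-hexosaminidase, was at 24.2 to 70.3 CPM on the low days of SL (median 27.7), against 91.7 CPM at day 0 and 80.5 to 163 CPM late (median 125). It passed against the late days (log2 -1.70 ± 0.16, edgeR adjusted p = 2.7e-07) and against day 0 (log2 -1.31 ± 0.27, adjusted p = 0.0017), the latter not without the course block. In both media, the highest Hexa library of days 1.5 and 2 was that of EB at day 2. Ctsc, cathepsin C, took another path from SL. It had 31.8 CPM at day 0 and 36.7 to 127 CPM on days 1.5 and 2 (median 51.8), so that all 6 low libraries were above day 0, and late it had 25.9 CPM in EpiSC at day 7 and 91.2 to 118 CPM elsewhere. Neither difference passed (edgeR adjusted p = 0.065 against late and 0.12 against day 0), and without the EpiSC course both did, as lower than late and higher than day 0. Over the group, 6 of 7 members were lower than late in SL (Plbd1 not without Neural), 3 of 7 were lower than day 0, and 6 of 7 were higher at day 3 than at day 1 in 2iL. In a wider list of 19 tested lysosome and autophagy genes, which includes 4 members, 14 were lower than late and 0 higher (median log2 -0.66). The shares of all genes were 35.4% and 30.7%. Against day 0, 3 were lower, where 17.5% of all genes were.

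**Figure D4:**
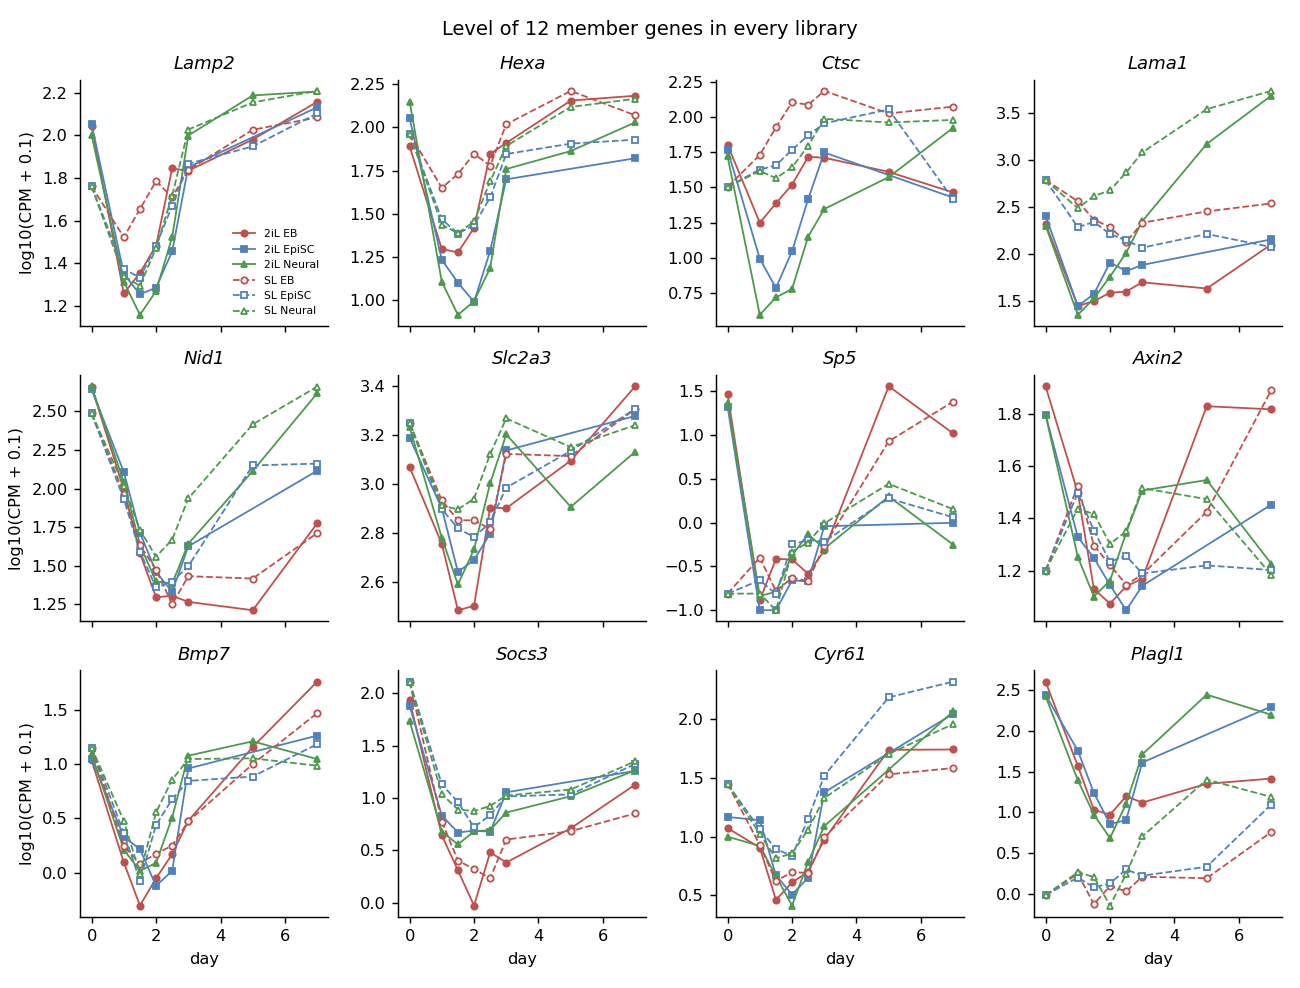
Level of 12 members in every library as log10(CPM + 0.1) by day, with filled symbols and solid lines for 2iL, open symbols and dashed lines for SL, and colours for the EB, EpiSC and Neural courses. The single SL day 0 library is drawn as the start of all 3 SL lines, and the y axes differ between panels. Ctsc, Axin2 and Plagl1 are members whose SL lines do not start high, at 31.8, 15.7 and 0.878 CPM.

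The 5 basement membrane genes included Lama1 and Lamb2, which encode chains of laminins, the linker nidogen Nid1, and Tinagl1. Nid1 fell from 457, 441 and 461 CPM at day 0 in 2iL to between 19.6 and 51.7 CPM on days 1.5 and 2 (median 33.3). Its late values in 2iL were 16.1 and 59.4 CPM in EB, 130 in EpiSC and 130 and 415 in Neural, so that the EB library of day 5 stayed below every low library. In SL it went from 307 CPM at day 0 to 22.7 to 53.8 CPM (median 37.4) and 26.0 to 458 CPM late (median 143). It was lower than late (log2 -1.87 ± 0.38, edgeR adjusted p = 0.00044) and than day 0 (log2 -2.96 ± 0.54, adjusted p = 0.00079).

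Lama1, the alpha chain of laminin-111 and a product of parietal endoderm (chromosome 17, 67697259 to 67822647, plus strand), was at 208, 256 and 200 CPM at day 0 in 2iL and at 31.2 to 80.6 CPM on days 1.5 and 2 (median 37.7). Late it had 42.5 and 125 CPM in EB, 142 in EpiSC and 1483 and 4853 in Neural. In the same Neural libraries the 6 extraembryonic endoderm markers summed to 1154 and 2214 CPM, against 93.4 to 204 CPM in EB and EpiSC, with none of the 6 at 0. Their part in the Lama1 values was not tested. In SL, Lama1 had 612 CPM at day 0, 162 to 474 CPM on the low days (median 225) and 118 to 5453 CPM late (median 313), where the groups overlap, and it passed neither against late (log2 -1.24 ± 0.53, adjusted p = 0.051) nor against day 0 (adjusted p = 0.38). Without EpiSC, without the course block and with DESeq2 it was lower than late, and without Neural lower than day 0. Over the 5 basement membrane members, 4 were lower than late in SL and 3 lower than day 0, of which Lamb2 was not without EpiSC or the course block.

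The Wnt group held the targets Sp5, Axin2 and Apcdd1, the secreted antagonist Sfrp1, the secreted Dickkopf protein Dkk3, and Dixdc1, a DIX domain protein of the pathway. Sp5 (chromosome 2, 70474923 to 70477729, plus strand), whose promoter carries the 2 TCF/LEF cores shown above, had 29.5, 21.0 and 23.4 CPM at day 0 in 2iL. It was at 0.0302, 0 and 0.0451 CPM on day 1 and at most 0.325 CPM on days 1.5 and 2. It returned to 36.0 and 10.4 CPM in EB at days 5 and 7, but to 0.897 CPM in EpiSC and 1.89 and 0.462 CPM in Neural. The return that the rule required of the mean was thus an EB value. In these late EB libraries, 4 primitive streak and mesoderm markers (Eomes, Kdr, Mesp1 and Mixl1) summed to 211 to 361 CPM. The same sum was 17.9 CPM in late EpiSC and 7.91 to 11.2 CPM in late Neural from 2iL. The part of such cells in the Sp5 values was not tested. In SL, 1 Sp5 read was counted at day 0 (0.0549 CPM), 0 to 7 reads in each library of days 1.5 and 2, and 154 and 486 reads (8.38 and 24.1 CPM) in EB at days 5 and 7, against 1.05 to 2.68 CPM in the other late libraries. Sp5 was lower on the low days than late (log2 -5.24 ± 0.86, edgeR adjusted p = 6.4e-05), and at 1 read the day 0 library allows no fold against it.

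Axin2, the negative regulator that Wnt signalling induces, was at 80.9, 62.9 and 62.7 CPM at day 0 in 2iL and at 11.7 to 17.6 CPM on days 1.5 and 2 (median 13.6). Late values were 67.8 and 65.9 CPM in EB, 28.3 in EpiSC and 35.2 and 16.7 in Neural. From SL it started at 15.7 CPM, close to the 2iL low, rose to 27.3 to 33.5 CPM in all 3 courses on day 1, and ran from 16.5 to 26.0 CPM on days 1.5 and 2. The late SL libraries held 15.2 to 29.7 CPM, with 78.0 CPM in EB at day 7, and neither difference passed (adjusted p = 0.23 and 0.64). Of the 6 Wnt members, all but Axin2 were lower than late in SL, and Sfrp1 and Dixdc1 were lower than day 0. Sfrp1 lost the latter call without the filter on low counts, the course block or the EpiSC course. A wider list held 25 Wnt targets and inhibitors, 2 of them members. Of these 25, 13 were lower than late and 4 higher (median log2 -1.08), against 35.4% and 30.7% of all genes. Compared with day 0, 1 was lower and 2 higher, where 17.5% and 15.3% of all genes were.

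Members of the TGF-beta superfamily pathway were the ligand Bmp7, the receptors Tgfbr2 and Tgfbr3, the BMP co-receptor Rgma, and the target genes Id4, Msx2 and Gsc. Bmp7 had 10.7, 11.1 and 12.3 CPM at day 0 in 2iL, 0.400 to 1.55 CPM on days 1.5 and 2 (median 0.865), and late 14.3 and 57.3 CPM in EB, 18.2 in EpiSC and 16.1 and 11.0 in Neural. In SL it went from 14.1 CPM to 0.745 to 3.4997 CPM (median 1.26) and then to 7.59 to 29.4 CPM (median 10.6), with no overlap. Both SL differences passed, by log2 -3.16 ± 0.38 against late (edgeR adjusted p = 3.4e-06) and log2 -3.18 ± 0.54 against day 0 (adjusted p = 0.0005). All 7 members of the group were lower than late in SL, where Gsc lost the call without the course block, without EB or without EpiSC, and Id4 without EpiSC or without Neural. Only Bmp7 and Tgfbr2 were also lower than day 0. Rgma (log2 1.66), Gsc (1.33) and Tgfbr3 (0.69) had positive fitted differences from day 0 that did not pass, Gsc with 3 reads at day 0. A wider list held 21 BMP pathway and Id genes, 3 of them members. Of these 21, 19 were lower than late and 0 higher (median log2 -1.93), against 35.4% and 30.7% of all genes. Compared with day 0, 8 were lower, where 17.5% of all genes were.

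Socs3, the inhibitor of Jak and Stat signalling (chromosome 11, 117966079 to 117970047, minus strand), was at 85.9, 76.1 and 54.6 CPM at day 0 in 2iL, where LIF is present, and at 4.32 to 6.72 CPM on day 1. Days 1.5 and 2 had 0.841 to 4.79 CPM (median 4.05), and the late libraries 5.05 and 13.4 CPM in EB, 18.1 in EpiSC and 10.3 and 18.4 in Neural. Every late library thus stayed below every day 0 library. In SL, Socs3 went from 130 CPM to 2.00 to 9.05 CPM (median 6.29) and then 4.73 to 22.4 CPM (median 11.4), where the groups overlap. It was lower than day 0 by log2 4.65 ± 0.21 (edgeR adjusted p = 1.9e-09) and lower than late by log2 1.15 ± 0.15 (adjusted p = 7.0e-06), the latter not without the course block. On the list of 16 LIF and Stat3 genes, of which Socs3 was the only member, 11 were lower than day 0 in SL and 0 higher. The shares of all genes were 17.5% and 15.3%. Compared with late, 10 of the 16 were lower and 2 higher, where 35.4% and 30.7% of all genes were.

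Cyr61, a secreted matrix protein and a target of Yap and Tead, was joined by Tead4, Vgll4 and Amotl1 of the Hippo pathway. It had 11.7, 14.6 and 9.90 CPM at day 0 in 2iL, and 2.49 to 4.59 CPM on days 1.5 and 2 (median 3.54). Late values were 54.9 and 55.3 CPM in EB, 111 in EpiSC and 37.2 and 117 in Neural, all above the starting levels. In SL it ran from 28.1 CPM through 4.08 to 7.77 CPM (median 6.60) to 33.9 to 209 CPM (median 70.9) with no overlap, and was lower than late (log2 -3.65 ± 0.26, edgeR adjusted p = 1.6e-08) and than day 0 (log2 -2.13 ± 0.38, adjusted p = 0.00071). All 4 Hippo members passed both SL tests downwards, as did 55.0% of all members and 8.65% of all genes. Vgll4 did not pass against day 0 without the course block or without EpiSC, nor Tead4 against late without EpiSC or without Neural.

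Cytoskeletal members were 8, among them Cald1, which binds actin and myosin, and Sept9, a septin. Cald1 stood at 121 CPM at day 0 in SL, at 17.0 to 27.8 CPM on the low days (median 22.9) and at 89.6 to 404 CPM late (median 150). Sept9 stood at 131 CPM, at 37.5 to 74.4 CPM (median 53.1) and at 104 to 188 CPM (median 144). Neither gene overlapped between low and late days, and both passed both tests. The giant scaffold proteins Ahnak and Ahnak2 fell from 612 to 41.9 to 89.7 CPM and from 313 to 10.7 to 40.3 CPM in SL, with late ranges of 175 to 1010 and 74.4 to 280 CPM. All 8 cytoskeletal members were lower than late in SL, and 4 were lower than day 0. Over all members these shares were 94.2% and 57.6%, and over all genes 35.4% and 17.5%. Tes, a LIM domain protein of focal adhesions, was higher than day 0 (log2 0.96 ± 0.31, edgeR adjusted p = 0.026). That call ended without EB or without the course block.

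All 7 members of the metabolism group passed both SL tests downwards, where 55.0% of all members and 8.65% of all genes did. Slc2a3, the glucose transporter Glut3, carried the most counts, with 1176, 1546 and 1709 CPM at day 0 in 2iL and 307 to 543 CPM on days 1.5 and 2 (median 415). In SL it went from 1777 CPM to 609 to 874 CPM (median 713) and to 1302 to 2031 CPM (median 1579) without overlap, with log2 -1.13 ± 0.14 against late (edgeR adjusted p = 4.8e-06) and log2 -1.23 ± 0.24 against day 0 (adjusted p = 0.0012). Plin2, which coats lipid droplets, was at 49.1 CPM at day 0, 10.9 to 14.9 CPM on the low days (median 13.0) and 37.7 to 147 CPM late (median 53.02) in SL. Fabp3, Elovl7 and Acox3 of fatty acid handling, Pck2 of gluconeogenesis and Prkaa2, the catalytic AMPK subunit, made up the rest. Pck2 did not pass against late without EB or without EpiSC, nor Prkaa2 against day 0 without the filter on low counts, the course block, EB or EpiSC.

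Axon guidance genes were represented by the cues Ntn1, Slit2 and Sema3b, the ephrins Efna3 and Efnb3, the receptor Epha4, Flrt2, and the Slit and Robo effector Srgap1. All 8 were lower than late in SL (median log2 -2.27), as were 94.2% of all members and 35.4% of all genes. Ntn1, Epha4 and Sema3b were lower than day 0, Ntn1 and Sema3b not without EB, EpiSC or the course block. Of 6 neuronal and myelin proteins, 4 were lower than late (Snap91 not without Neural) and 1 lower than day 0. Tubb3, the neuronal beta-tubulin, was at 59.5, 48.8 and 59.9 CPM at day 0 in 2iL, at 6.57 to 26.9 CPM on days 1.5 and 2 (median 17.995), and late at 8.11 and 5.03 CPM in EB, 64.7 in EpiSC and 57.0 and 201 in Neural. In SL it started at 17.1 CPM, had 16.7 to 32.7 CPM on the low days (median 28.2) and 15.5 to 37.0 CPM late except in Neural at day 7 (121 CPM), and neither difference passed (adjusted p = 0.26 and 0.30). Mapt, the microtubule protein tau, fell from 24.1 CPM at day 0 to 0.530 to 1.86 CPM in SL (log2 -4.26 ± 0.50, edgeR adjusted p = 2.5e-05) and did not return, with 0.435 to 1.56 CPM late outside the Neural library of day 7 (7.37 CPM). Ncam1, a neural adhesion molecule, was lower than late (log2 -1.79 ± 0.36, adjusted p = 0.00043).

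Bach2, Jdp2, Lhfpl2 and S1pr1 were among the 8 members with the largest fall against late in SL of those that passed both SL tests. Bach2, a transcriptional repressor, had 19.9, 13.1 and 17.1 CPM at day 0 in 2iL, 0.272 to 0.593 CPM on day 1 and 6.08 to 13.6 CPM on day 3. In SL it was at 3.57 CPM at day 0, 0.987 to 3.10 CPM on the low days (median 1.70) and 14.3 to 25.1 CPM late (median 18.7), lower than late by log2 3.43 ± 0.17 (edgeR adjusted p = 6.0e-10). Jdp2, an AP-1 repressor, fell from 11.1 to 0.410 to 1.31 CPM in SL (log2 -4.08 ± 0.36, adjusted p = 2.2e-06) and came back to 2.56 to 12.9 CPM. S1pr1, the receptor for sphingosine-1-phosphate, was counted by at most 12 reads in any library of days 1.5 and 2, against 208 to 515 reads at day 0 in 2iL, which the rule used. In SL it had 24 reads at day 0, 0 to 8 reads in each library of days 1.5 and 2 and 6 to 68 reads late, and was lower than late (log2 -3.71 ± 0.62, edgeR adjusted p = 8.4e-05) and than day 0 (log2 -2.82 ± 0.96, adjusted p = 0.035). Lhfpl2, a tetraspan membrane protein, was at 11.3 CPM at day 0 in SL, at a median of 4.42 CPM on the low days and at 34.8 CPM late, lower by log2 2.95 ± 0.24 than late (adjusted p = 6.3e-08) and by log2 1.35 ± 0.39 than day 0 (adjusted p = 0.016). Bach2, Lhfpl2 and S1pr1 did not pass against day 0 without EpiSC, nor did Lhfpl2 and S1pr1 without the course block. Chromatin proteins, 7 in number with the Polycomb chromobox protein Cbx8, the remodeller Chd3 and the histone variant H2afy, were all lower than late in SL (median log2 -1.81), where Smarcd3 did not pass without EB or without Neural. Against day 0, 4 of them were lower, where 57.6% of all members and 17.5% of all genes were. Smarcd3 did not pass against day 0 without EB or the course block, nor H2afy without the course block.

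Cdkn1a, the p53 target that encodes the cell cycle inhibitor p21, was at 88.3, 49.7 and 67.6 CPM at day 0 in 2iL and at 17.0 to 22.01 CPM on days 1.5 and 2 (median 20.1). From SL the values were lower throughout, 29.3 CPM at day 0, 8.29 to 17.8 CPM on the low days (median 12.4) and 23.5 to 69.2 CPM late (median 55.6). Both SL differences passed, by log2 -1.89 ± 0.14 (edgeR adjusted p = 2.1e-08) and log2 -1.23 ± 0.23 (adjusted p = 0.00093), the latter not without the course block. Tfap2c, a regulator of naive cells, germ cells and trophoblast, was at 60.7 to 63.6 CPM at day 0 in 2iL but at only 6.28 to 11.7 CPM late. It passed both SL tests (log2 -1.65 ± 0.27 and -3.08 ± 0.39, adjusted p = 6.5e-05 and 5.0e-05).

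Plagl1, an imprinted zinc finger gene (chromosome 10, 13060504 to 13131694, plus strand), differed between the media. In 2iL it had 398, 274 and 264 CPM at day 0, 4.76 to 17.2 CPM on days 1.5 and 2 (median 9.30), and late 22.3 and 25.8 CPM in EB, 197 in EpiSC and 276 and 156 in Neural. In SL it had 0.878 CPM at day 0 and 0.627 to 1.52 CPM on the low days, so that there was no high start to fall from, and 1.47 to 25.1 CPM late (median 9.03). It was lower than late in SL (log2 -2.90 ± 0.51, edgeR adjusted p = 0.00012). At days 1, 2.5 and 3, which the rule did not use, it was higher from 2iL than from SL (log2 3.83 ± 0.33, adjusted p = 1.6e-06), with 7.96 to 56.9 CPM in the 9 libraries from 2iL against 0.983 to 4.99 CPM in those from SL.

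Over all members, the fit of medium, day and course at days 1, 2.5 and 3 (18 libraries, 190 members passing the filter on low counts) called 60 lower from 2iL than from SL and 12 higher. Among all 15295 genes, 13.1% were lower and 13.5% higher. Beside Plagl1, those higher from 2iL included Jdp2 (log2 0.80 ± 0.22, not without EpiSC, Neural or the course block) and Cdkn1a (log2 0.72 ± 0.16, not without Neural), and among those lower were Lama1 (log2 -2.38 ± 0.38), Tinagl1 (-2.55 ± 0.21) and Ctsc (-1.76 ± 0.18), all with edgeR adjusted p under the threshold. The extraembryonic endoderm list that includes Lama1 moved with the medium, with 20 of 23 tested genes lower from 2iL, and its part in the members' values was not tested. Since members were chosen for low values in 2iL on the neighbouring days, a lean towards lower values from 2iL is built into this comparison. Leaving out EpiSC left 34 members lower and 3 higher, and leaving out Neural 7 higher.

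How the members began to return was measured in 2iL by day 3 against day 1 in the 9 libraries of days 1, 2.5 and 3, none of which chose them. The rule nevertheless asked for low values in 2iL between days 1 and 2.5, and for high late values in the same courses. A lean towards rises is thus built into this comparison, and its size was not tested. Of 188 members that passed the filter on low counts (Sp5, S1pr1 and Gsc did not), 85 were higher at day 3 and 17 lower, against 25.5% and 24.4% of 15020 genes, and the median log2 change was 0.64 over members and 0.00 over all genes. The largest rises were those of Cap2 (log2 4.60 ± 0.25), which binds actin monomers, Bach2 (log2 4.37 ± 0.42) and Lhfpl2 (log2 3.21 ± 0.31). Hes1, the Notch target, rose by log2 2.74 ± 0.29, the semaphorin Sema3b by 2.81 ± 0.34 and Pck2 by 2.204 ± 0.19. Lysosomal Hexa, Lamp2, Ctsc, Ctsa and Plbd1 all rose, by log2 0.92 to 3.13, Ctsa not without Neural or the course block. The 17 that were lower at day 3 were still falling after day 1: Mapt (log2 -2.95 ± 0.40), the protease Htra1 (-2.66 ± 0.23), Nid1 (-1.78 ± 0.22) and Ahnak (-1.35 ± 0.34) were among them. Leaving out Neural left 44 higher, leaving out EpiSC 9 lower, and the fit without the course block 55 higher.

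**Figure D5:**
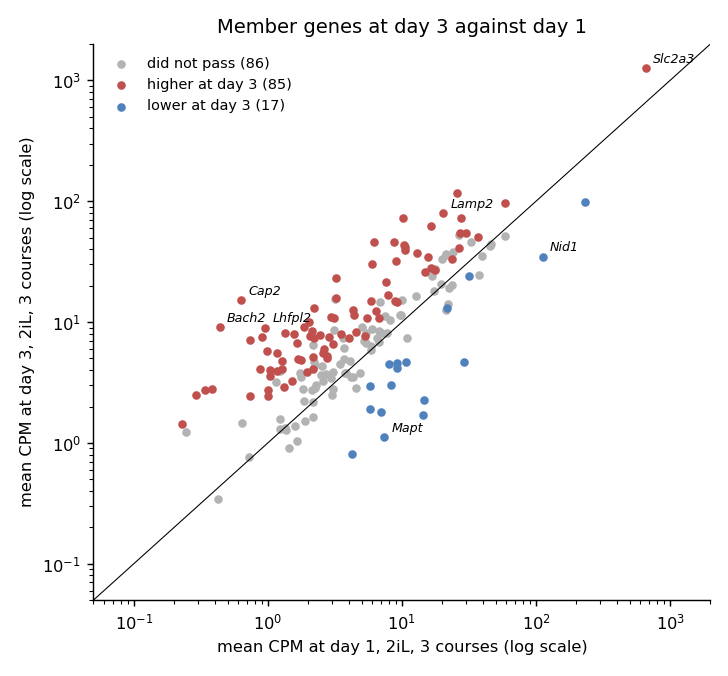
Mean CPM of 188 members at day 3 against day 1 in the 3 courses from 2iL, on log scales, with the line of equal level. Red points mark the 85 members higher at day 3 and blue points the 17 lower (edgeR adjusted p under 0.05), and Cap2 and Bach2 lie farthest above the line while Mapt lies far below it.

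Where the members came back was compared among the late SL libraries. Neural held the highest mean of days 5 and 7 for 117 of 191 members, EpiSC for 40 and EB for 34 (61.3%, 20.9% and 17.8%). Of the 10168 genes at the same levels, the shares were 27.3%, 29.0% and 43.7%. The rule asked for a high late mean in 2iL, where Neural was highest for 101 members, EB for 53 and EpiSC for 37. A lean towards Neural in SL can thus come with the choice of members, also in the tests between courses. Its size was not tested. EpiSC against Neural, tested over 6 libraries with day as a term, gave 21 members lower in EpiSC and 2 higher, against 2.13% and 1.02% of 14959 genes. Lama1 (log2 -4.99 ± 0.33), the serine protease Prss35 (-4.52 ± 0.42), the cystatin Cst3 (-1.85 ± 0.13), Lamb2 (-1.18 ± 0.14), Ctsa (-1.23 ± 0.18) and the netrin Ntn1 (-1.83 ± 0.31) were higher in Neural, and Cyr61 (log2 1.36 ± 0.18) and Cald1 (log2 1.18 ± 0.12) were higher in EpiSC, all under the edgeR threshold. These calls rest on 2 libraries a course, of days 5 and 7, which are time points and not repeats. None of the members lower in EpiSC passed without EpiSC day 7 or without Neural day 5, 7 passed without EpiSC day 5 and 8 without Neural day 7, and the members higher in EpiSC numbered 0 or 1 without any 1 of these libraries. The SL Neural libraries held 2370 and 2641 CPM of extraembryonic endoderm markers against 109 and 345 CPM in EpiSC, and on the list of 23 such genes 13 were lower in EpiSC and 0 higher. Their part in the members' values was not tested.

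EB was compared with both serum-free courses in the same 6 libraries. EB differs from them in suspension culture as well as in serum, and these cannot be told apart here. With edgeR, 0 members were lower in EB and 0 higher, against 0% and 0.00668% of all genes, and at an unadjusted p under 0.05 63 were lower and 12 higher, against 10.3% and 7.21% of all genes. DESeq2 called 37 lower and 6 higher, against 3.78% and 1.77% of all genes. The fitted difference was negative for 140 of the 191 members, with a median of log2 -0.41 against 0.00 over all genes. Nid1 had the smallest adjusted p (0.069), with 26.0 and 51.3 CPM in EB against 141 to 458 CPM in the other 4 libraries, and Sp5 the largest difference in the other direction (log2 3.17 ± 0.58, adjusted p = 0.098), with the EB values given above.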

How the data were processed

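Strand-specific total RNA-seq of 45 libraries was analysed. The authors trimmed reads with TrimGalore, mapped them to GRCm38 with TopHat2 guided by Ensembl models, counted reads per gene with featureCounts, and deposited raw counts, with no normalization and 1 file per library. From these counts, CPM were taken over each library total, and models were fitted in R 4.3.3 with edgeR 4.0.16 (TMM, filterByExpr, quasi-likelihood, Benjamini-Hochberg over all genes tested, threshold 0.05), DESeq2 1.42.0 and Python 3.11.15. Rows without a gene symbol took at most 0.00140% of counts and were left out. Intervals of counting error are small at these depths except for genes with few reads, which are given as reads.

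The members, the functional groups and the 18 gene lists were chosen with earlier results of these data known. Genes described in full were the list genes among the members with the highest day 0 level, those with the largest fall in SL that passed both SL tests, those with the most counts and the 3 nearest the limit. Other members were named after their values were seen. Some genes are not reported here, although counts over members include them.

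Courses served as a replicate block where days or media were compared. Libraries of the same course deviated together (mean correlation of deviations 0.442 in 2iL and 0.471 in SL). The values between courses, -0.213 and -0.226, are no contrast to these. Deviations were taken from the mean of the courses, which makes those values negative by construction. The pairing comes from the course in the labels, so the block was kept although single pairs ran as low as 0.0909. No 2 libraries of the same medium and day agreed within counting noise (43 pairs), and other pairs were not compared. The models were tested on simulated counts. Alternatives were DESeq2, no low-count filter, no block or day term, RLE scaling, each course or library left out, and other limits in the rule. Gene positions come from GENCODE on GRCm38, promoters from RefSeq (GRCm38.p6).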

Additional observations from a re-analysis of the deposited data

Results flagged for a closer look

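In 11 of 112 groups of late or low libraries of the named members, the highest or lowest library stood apart from the rest by Dixon's criterion. Its chance rate of about 1 in 20 holds for draws from a single normal population. Each group here pools courses and days, so that rate is no measure for this count. In SL on days 5 and 7 these were Axin2 in EB at day 7 (78.0 CPM, next 29.7), Tubb3 in Neural at day 7 (121 CPM, next 37.0), Plin2 in EpiSC at day 5 (147 CPM, next 74.8), Bmp7 in EB at day 7 (29.4 CPM, next 15.2), Jdp2 in EpiSC at day 7 (12.9 CPM, next 5.40) and, at the low end, Ctsc in EpiSC at day 7 (25.9 CPM, next 91.2). In 2iL they were Ctsc in Neural at day 7 (83.6 CPM, next 40.6), Bmp7 in EB at day 7 (57.3 CPM, next 18.2), Nid1 in Neural at day 7 (415 CPM, next 130) and S100a11 in Neural at day 7 (22.5 CPM, next 12.0). On the low days, Cyp4f17 in EB at day 2 in SL (3.91 CPM, next 2.105) stood apart.

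For Plagl1, Axin2, Ctsc and Tubb3, the difference of days 1.5 and 2 from day 0 had opposite signs in the 2 media, and in SL it did not pass the edgeR test for any of the 4. On the log2(CPM + 0.1) scale, the mean differences in SL and 2iL were 0.24 and -4.998 for Plagl1, 0.36 and -2.30 for Axin2, 0.92 and -2.37 for Ctsc and 0.55 and -1.83 for Tubb3. The rule required the fall from day 0 in 2iL of every member, so only the sign in SL was free. The difference between media was not tested, and SL had 1 library at day 0.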

How the results depend on the processing

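The number of members was 471 with a fold limit of 2 (all 191 among them), 108 with a limit of 4, 107 with a minimum of 10 CPM, 172 with CPM scaled by TMM factors and 161 to 229 without 1 course, of which 139 to 175 were the same genes.

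Lower calls in SL kept within 1.5 times of the reported counts under every alternative run, with 166 to 182 members lower than late and 75 to 122 lower than day 0. Without the course block (the pairing of libraries by course), 75 members were lower than day 0 and 0 higher, 70 were lower than both ends, and 55 were higher at day 3 in 2iL. The block also moved the members higher from 2iL than from SL, which were 5 without it. Without the filter on low counts, 1 member was higher than day 0 in SL. With that setting, 12 members were lower and 1 higher in EB than in the serum-free courses. It also gave 34 lower and 6 higher in EpiSC than in Neural. DESeq2 gave 37 and 6 for EB against the serum-free courses, and 58 and 12 for EpiSC against Neural. Without the day term, 0 members were higher in EpiSC. In these cases the cause was not tested.

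Leaving out a course or library gave 0 to 1 members higher than late and 1 to 3 higher than day 0 in SL, 9 to 20 lower and 44 to 96 higher at day 3, 34 to 56 lower and 3 to 9 higher from 2iL, and 0 to 16 lower (0 without EpiSC day 7 or Neural day 5, 7 without EpiSC day 5 and 8 without Neural day 7) and 0 to 2 higher in EpiSC than in Neural. Where 1 late library of a course was left out, the lone one was assumed to vary like the others. Of 1771 values for single genes under an alternative, 1583 stayed on the same side of the threshold, 173 lost a call, 15 gained one and none had a call in the opposite direction.

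SL had a single day 0 library, and each course and day 1 library, so the error at day 0 is borrowed from other days. With totals of 13093226 counts or more, genes such as Sp5 and S1pr1 on days 1.5 and 2 rest on 12 reads or fewer.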

Other observations

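The remaining lists of genes fixed for this work give the surroundings of the members in SL, as counts of genes lower and higher on days 1.5 and 2 than on days 5 and 7, where 35.4% of all genes were lower and 30.7% higher. Against day 0, 17.5% of all genes were lower and 15.3% higher. Of 18 naive pluripotency factors, of which none was a member, 0 were lower than late and 10 higher, and 15 were lower than day 0. Of 19 germline genes, 15 were higher than late and 2 lower, and 5 were lower than day 0 and 1 higher. Of 16 metallothionein and oxidative stress genes, 10 were higher and 1 lower. The counts in the other lists, several of them with shares near those of all genes, were extraembryonic endoderm (12 of 23 lower, 0 higher), trophoblast (11 of 14 lower, 1 higher, with the members Gjb5, Tead4 and Tfap2c), mesoderm, heart and blood vessel (13 of 28 and 5), neural and glial (16 of 24 and 1), Notch (11 of 16 and 1, with the member Hes1), retinoic acid (9 of 16 and 4), epithelial junction (11 of 21 and 2), antigen presentation and interferon (9 of 17 and 1), growth arrest and p53 targets (9 of 19 and 4), immediate early and AP-1 (12 of 18 and 0) and imprinted genes (16 of 22 and 1). Of the 160 list genes that met the level limits in 2iL, 21 were members.

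Some members had their low outside the days of the rule in SL, where 46 were lowest on day 1, 74 on day 1.5, 46 on day 2, 9 on day 2.5, 3 on day 3 and 13 at day 0. Ddr2, a collagen receptor, was the only member whose fitted value in SL was higher on days 1.5 and 2 than late (log2 0.81, edgeR adjusted p = 0.16). It was at 4.22 CPM at day 0 and at 0.486 to 5.39 CPM on the low days. Late it had 0.109 and 0.297 CPM in EB, 1.93 and 6.94 CPM in EpiSC and 1.39 and 0.884 CPM in Neural, and in 2iL the late mean rested on 25.5 CPM in EpiSC at day 7.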
